A study of Mus musculus with 2 samples.

Results

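The genes described here are the amino acid and glucose transporters of 6 solute carrier families, read in leukocytes sorted from mouse melanomas. They were taken by name: every gene symbol in the deposited gene tables that begins with Slc1a, Slc2a, Slc3a, Slc7a, Slc38a or Slc43a was a member, apart from 2 symbols left out of the selection. This gave 49 of the 32285 genes, namely 7 of Slc1a, 11 of Slc2a, 2 of Slc3a, 15 of Slc7a, 11 of Slc38a and 3 of Slc43a. One of them, Slc7a6os, carries the prefix because it lies next to Slc7a6 and is not a transporter. The annotation of the same mouse build (GENCODE M21) lists all 49 as protein-coding.

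B16F10 is a transplantable mouse melanoma line, here grown under the skin of mice labelled wild type. The IL4 group received bone marrow-derived macrophages (BMDMs) that had been treated with IL-4, and the control group received untreated BMDMs. Leukocytes bearing CD45 were sorted from the tumours by flow cytometry and profiled by droplet single-cell RNA sequencing (10x Genomics). Each group is 1 library, so no difference between the groups has a replicate check and no test was made: intervals below are exact 95% counting intervals and cover counting error only. One protocol field names the IL-4-treated cells for both libraries, and the groups follow the treatment label of each sample. The number, age, sex and strain of the mice are not given in the sources used here, and transferred macrophages cannot be told apart from those of the host.

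Cells cannot make every amino acid, and they take up sugars and amino acids through carriers that differ in what they move and what they exchange it for. The Slc2a carriers let hexoses and related molecules follow their gradient, the Slc38a carriers draw in glutamine and other small neutral amino acids with sodium, and many Slc7a proteins are exchangers that reach the cell surface only when joined to the heavy chain encoded by Slc3a2 (CD98). In leukocytes these carriers are best known for feeding glycolysis, protein synthesis, glutathione and the arginine that arginase and nitric oxide synthase consume.

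The IL4 library held 13873 cell barcodes and 133151428 UMIs (unique molecular identifiers, each standing for 1 captured transcript), and the control library 8994 barcodes and 95499107 UMIs. The medians over these barcodes, before filtering, were 8213 and 9156.5 UMIs. After filtering, 13762 and 8937 barcodes remained. Barcodes were gated by marker lists that contain no member, and 8 types with at least 50 barcodes in each library were compared. Macrophages had 3762 barcodes in IL4 and 2427 in control, classical monocytes 2234 and 1439, type 2 conventional dendritic cells (cDC2) 851 and 657, cDC1 210 and 166, mature dendritic cells (mature DC) 312 and 175, neutrophils 109 and 229, T cells 302 and 182, and NK cells 374 and 155. Every gated type carried UMIs of all its own markers and of Ptprc, the gene of CD45. Neutrophil barcodes were shallow, at medians of 2429 UMIs in IL4 and 2888 in control. Both libraries held cells of both sexes: among barcodes with UMIs of Xist or of Y-linked genes but not both, 10.9% in IL4 and 36.8% in control were Y-only. Where a call was lost in either set, given at least 50 barcodes in each library, its value there is stated. The libraries share 23 barcode strings. Barcodes with both lymphoid and myeloid markers (1070 and 500) were set apart as mixed, and no doublet caller was run.

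Values below are CPM, the UMIs of a gene relative to the UMIs of all genes, on the usual CPM scale, summed over the barcodes of 1 type in 1 library. CPM is not scaled to transcript length, so levels are set side by side between types and libraries and not between genes.

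The members differed widely in how often they were captured. The 5 members at 0 UMIs in both libraries were Slc7a9 and Slc7a10, which pair with heavy chains in kidney and brain, Slc7a12, and the Slc38a members Slc38a4 and Slc38a5. Members were counted over the barcodes kept after filtering, which held 132885689 UMIs in IL4 and 95361764 in control. Counts of 0 there allow up to 3 UMIs in each library. A further 19 members had between 1 and 99 UMIs over both libraries, among them Slc2a2 with 1 and Slc2a4 with 2, the glucose carriers of liver and muscle. At the other end, 18 members passed 1000 UMIs. The best captured were Slc38a1 (54383 UMIs in IL4, 30260 in control), Slc3a2 (33693 and 23389), Slc38a2 (27884 and 18268), Slc7a8 (13386 and 8109), Slc7a11 (9921 and 9115) and Slc7a1 (9374 and 6745).

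**Figure D1:**
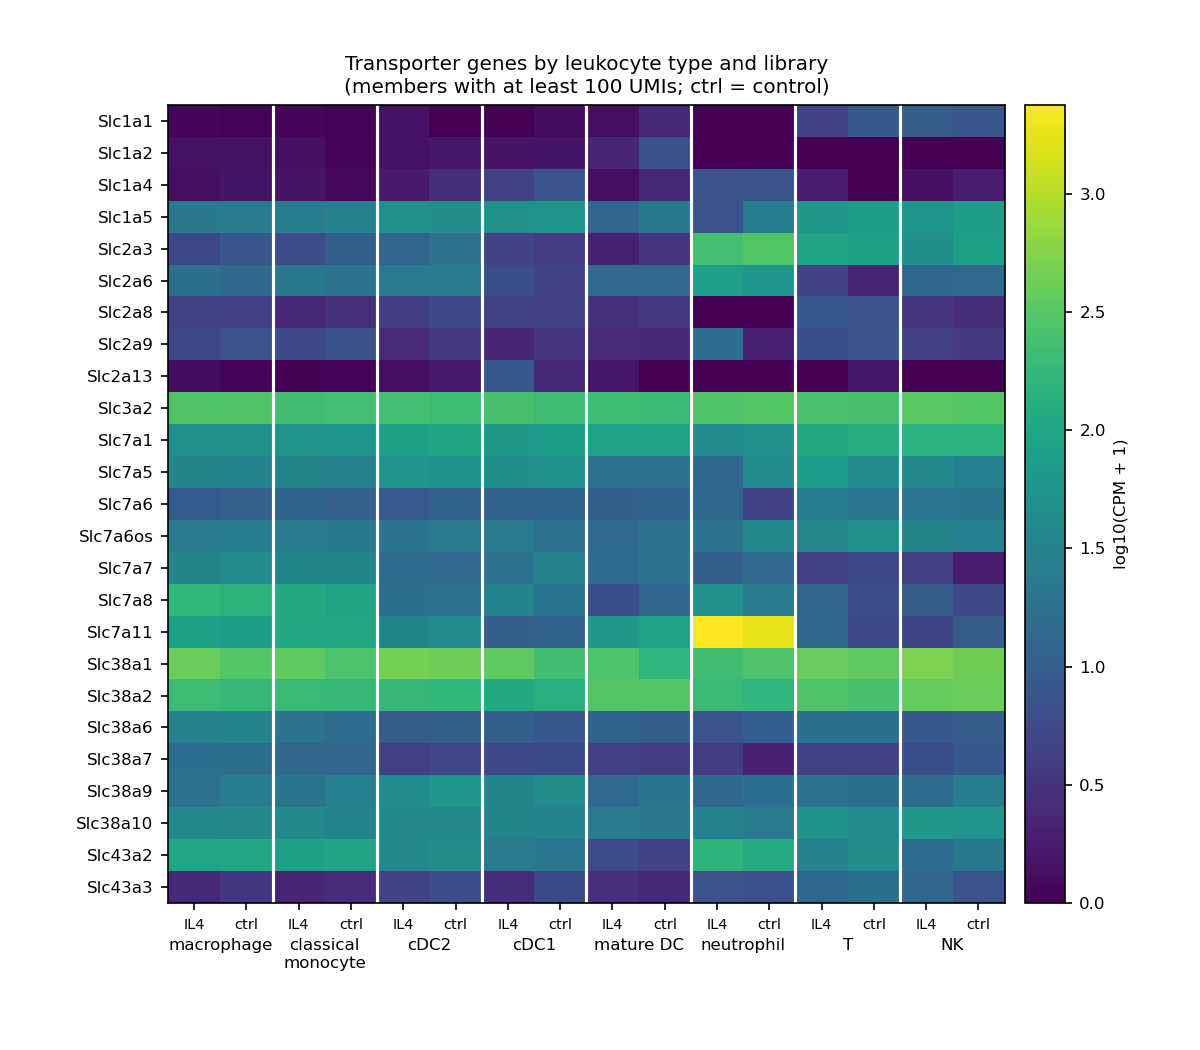
Level of the 25 members with at least 100 UMIs over both libraries, as log10(CPM + 1) by colour, in 8 leukocyte types (columns, IL4 left and control right in each pair). Slc7a11 in neutrophils is the brightest cell of the map, at 2370 CPM in IL4 and 1830 CPM in control, and Slc3a2 keeps nearly one colour across all types.

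A member was called raised in a type if, in both libraries, that type had the highest CPM, at least 10 CPM and at least 10 UMIs, and stood at least 2-fold above the type next in order. Of the 19 members that reached the minimum, 3 were raised in 1 type (15.8%, against 12.6% of all 9444 genes that reached it), and all 3 were raised in neutrophils: Slc7a11, Slc2a3 and Slc2a6. Over all genes, 3.34% were raised in neutrophils. None was raised in any of the other 7 types, where the shares over all genes were 0.625% for macrophages, 0.148% for classical monocytes, 0.307% for cDC2, 1.25% for cDC1, 3.84% for mature DC, 1.73% for T cells and 1.39% for NK cells.

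Slc7a11 encodes xCT, the light chain that brings cystine into the cell in exchange for glutamate and so supplies cysteine for glutathione. The 300 bases around its transcription start (RefSeq, GRCm38.p6, chr3:50443564-50443863, minus strand, 250 bases before and 50 after the start) are shown because Slc7a11 carries the strongest type difference of the set and is a textbook target of the stress factor ATF4. Capitals mark the letters TGATGNAA on either strand, the core of the composite element that ATF4 and its partners bind.
Slc7a11: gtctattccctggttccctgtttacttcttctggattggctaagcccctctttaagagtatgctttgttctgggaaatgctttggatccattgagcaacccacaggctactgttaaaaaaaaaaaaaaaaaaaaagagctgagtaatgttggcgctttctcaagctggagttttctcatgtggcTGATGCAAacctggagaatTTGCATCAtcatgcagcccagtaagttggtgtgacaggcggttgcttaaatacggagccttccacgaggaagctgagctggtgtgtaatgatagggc
Slc2a6: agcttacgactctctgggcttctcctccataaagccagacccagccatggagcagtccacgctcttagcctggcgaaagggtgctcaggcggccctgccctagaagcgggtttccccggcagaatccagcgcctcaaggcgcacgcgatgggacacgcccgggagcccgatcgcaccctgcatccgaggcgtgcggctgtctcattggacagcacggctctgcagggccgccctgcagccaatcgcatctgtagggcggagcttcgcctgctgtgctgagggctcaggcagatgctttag
The motif begins 66 and 47 bases before the Slc7a11 start, once on each strand, and the copies do not overlap. The Slc2a6 window (chr2:27027949-27028248, minus strand) is printed for contrast as another gene raised in neutrophils, and these letters are not in it. Of 32851 promoter windows of this length, 3.97% hold the motif. Among the 38 members with a window in the table (49 windows in all), Slc7a11, Slc7a7 and Slc1a4 hold it. A shorter run, ACGTG, the core that hypoxia-inducible factors bind, is in windows of 13 members and in 19.6% of all windows, and TGACNNNGC, the core bound by NRF2, is in windows of 4 members and in 12.4% of all. Slc7a11 is in neither of these lists. These matches describe the letters only.

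In neutrophils Slc7a11 reached 2370 CPM in IL4 and 1830 CPM in control, from 749 and 1596 UMIs. The type next in order was the classical monocyte in both libraries, at 106 and 107 CPM, so neutrophils stood 22.3-fold above it in IL4 and 17.1-fold in control. The signal was spread over the type: 95 of 109 IL4 neutrophils and 196 of 229 control neutrophils carried at least 1 Slc7a11 UMI (87.2% and 85.6%), and no barcode held more than 5.21% of the UMIs. After thinning each barcode to 1000 UMIs, 78.8% of IL4 neutrophils (69.7 to 86.2) and 72.4% of control neutrophils (66.0 to 78.2) still had one. In NK cells, which should lack the gene, the thinned shares were 0.267% and 0.645%, with median depths of 6123 and 6411 UMIs (2.67% and 2.58% unthinned).

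Below neutrophils, the Slc7a11 levels formed a middle and a low group. Classical monocytes were followed by macrophages (83.1 CPM in IL4, 77.8 in control) and mature DC (65.2 and 88.0), which changed places between the libraries. cDC2 had 34.4 and 43.3 CPM, cDC1 9.53 and 10.8, T cells 13 and 4.34, and NK cells 4.03 and 8.85, the last 3 types resting on 7 to 39 UMIs per library. The neutrophil gene S100a8, which encodes a calcium-binding protein stored in neutrophils, was set beside Slc7a11. S100a8 is also a marker of the neutrophil gate, so the gating itself can lower it in other types. It therefore cannot measure how much neutrophil RNA those types carry. S100a8 in macrophages was 0.0397% of its neutrophil level in IL4 and 0.205% in control, whereas Slc7a11 in macrophages was 3.51% and 4.25% of its own. In classical monocytes the S100a8 shares were 0.133% and 0.630%, and the Slc7a11 shares 4.49% and 5.85%.

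**Figure D2:**
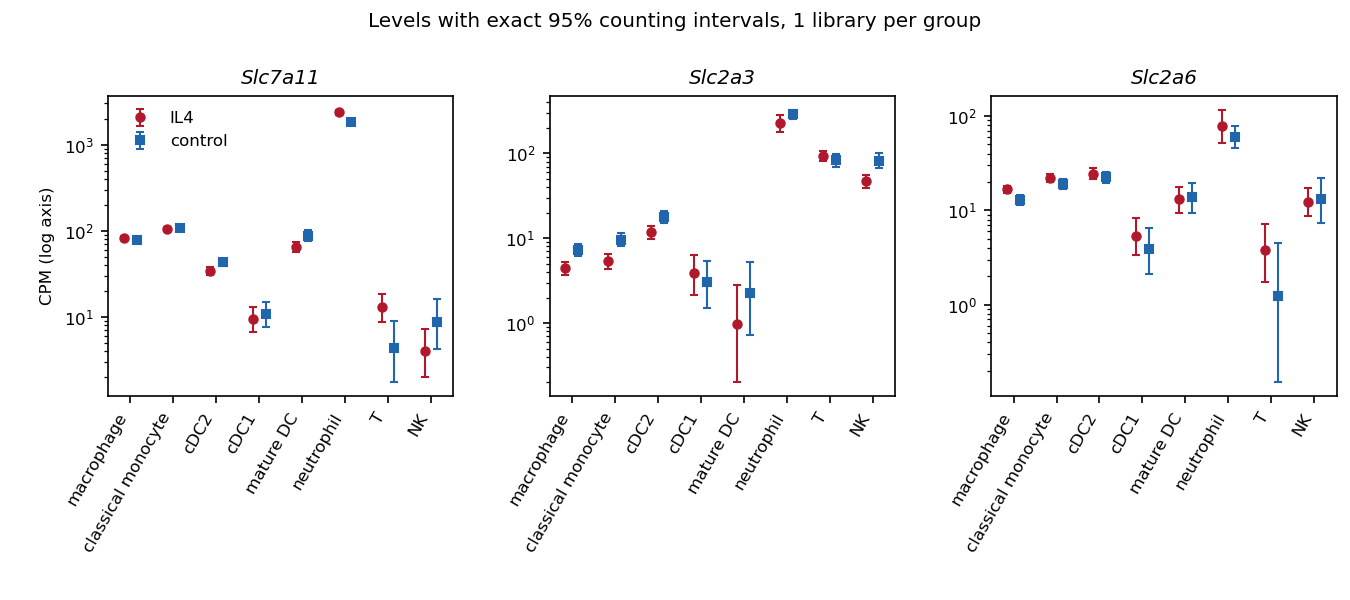
CPM of Slc7a11, Slc2a3 and Slc2a6 in 8 leukocyte types on a log axis, IL4 as red circles left of control as blue squares, with exact 95% counting intervals. Neutrophils are highest in both libraries for all 3 genes, while T and NK cells come next for Slc2a3 (93.5 and 47.2 CPM in IL4, 82.6 and 82.3 CPM in control) and are among the lowest for Slc7a11.

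Slc2a3 encodes GLUT3, a high-affinity glucose carrier. It had 228 CPM in IL4 neutrophils and 290 CPM in control neutrophils, followed by T cells (93.5 and 82.6) and NK cells (47.2 and 82.3), while macrophages had 4.42 and 7.29 CPM and mature DC 0.968 and 2.24. Among the 8 types, neutrophils thus stood 2.43-fold above T cells in IL4 and 3.51-fold in control. Types too small to compare also carried the gene. Mast cells or basophils had 1700 CPM in IL4 and 246 in control, on 16 and 5 UMIs from 3 barcodes in each library. B cells had 139 and 51.6 CPM, on 14 and 12 UMIs. The call therefore holds among the 8 types only. Within T cells, those with CD8 markers had 125 CPM in IL4 (109 to 144) and 96.5 in control (77.0 to 119), and the other T cells 28.8 (18.1 to 43.6) and 71.4 (52.9 to 94.5). The gap between these T cell groups was therefore wide in IL4, where the intervals are far apart, and the intervals overlapped in control.

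Slc2a6 encodes GLUT6, which sits on lysosomes in mouse macrophages. It had 79.1 CPM in IL4 neutrophils and 60.7 in control neutrophils, on 25 and 53 UMIs. Of the 8 compared types, cDC2 were next, at 24.6 and 22.5 CPM, then classical monocytes at 22.1 and 19.1 and macrophages at 16.7 and 12.9. Plasmacytoid DC, too few in control to be compared, had 41.0 CPM in IL4 and 41.9 in control, on 31 and 8 UMIs. That is above cDC2 and too close to neutrophils for the 2-fold rule, so the call holds among the 8 types only. T cells were lowest, at 3.77 and 1.24 CPM. NK cells (12.4 and 13.3 CPM) were close to mature DC (13.2 and 13.9), and cDC1 had 5.41 and 3.87 CPM, so the levels did not divide myeloid from lymphoid types. Slc2a9, a urate carrier, and Slc2a8 were low: Slc2a9 had 4.42 and 6.23 CPM in macrophages and 15.8 and 1.15 CPM in neutrophils, there on 5 UMIs and 1 UMI, and Slc2a8 had at most 7.55 and 6.83 CPM, in T cells.

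Slc3a2, the shared heavy chain, varied least among the well captured members. It ran between 212 CPM (mature DC) and 322 CPM (NK cells) over the 8 types of the IL4 library, a 1.52-fold range, and between 192 CPM (mature DC) and 303 CPM (NK cells) in control, a 1.58-fold range. Slc3a1, the other heavy chain and best known from kidney, had 14 UMIs over all kept barcodes of IL4 and 20 over those of control. The light chains of Slc3a2 did not share its evenness. Taking the UMIs of the 6 light chains Slc7a5, Slc7a6, Slc7a7, Slc7a8, Slc7a10 and Slc7a11 together, the leading chain differed between types, and it was the same in both libraries for every type but classical monocytes. Shares compare UMIs of genes with different lengths, so they describe each chain across types, not the amounts of protein.

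**Figure D3:**
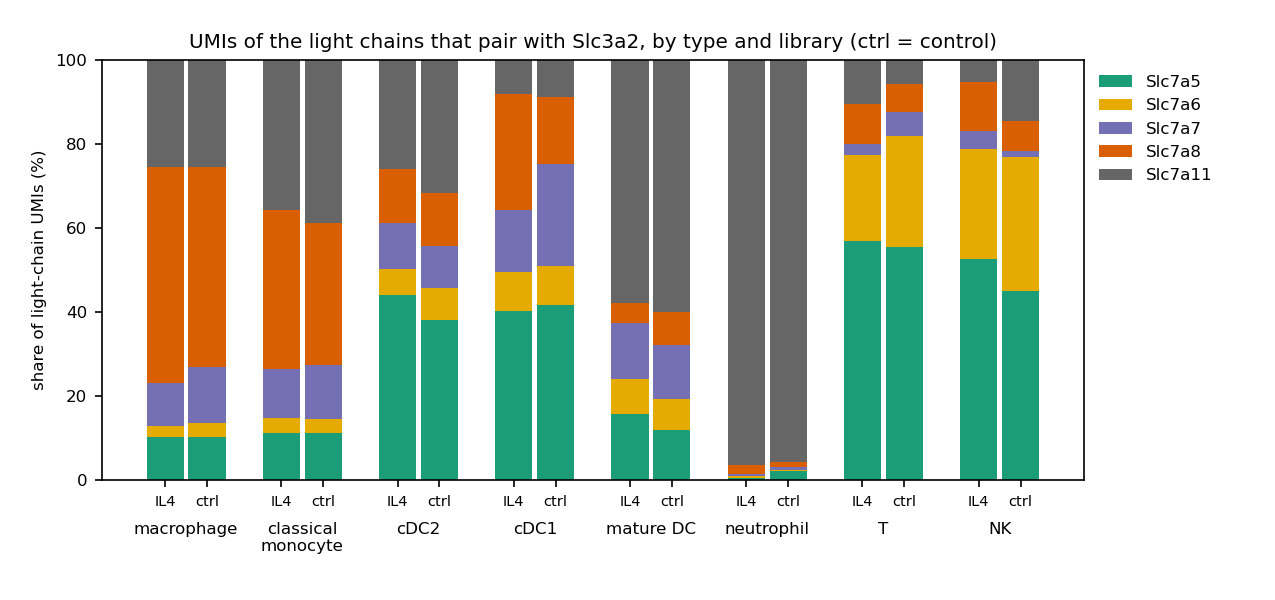
Share of the UMIs of the Slc3a2 light chains held by each of 5 chains (Slc7a10 has none), in percent, by leukocyte type, IL4 bar left of control bar. Slc7a11 fills 96.5% of the IL4 neutrophil bar and 95.7% of the control neutrophil bar, Slc7a8 is the widest band in macrophages (51.6% and 47.6%), and Slc7a5 in T cells (56.8% and 55.4%).

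Slc7a8 (LAT2), an exchanger of neutral amino acids, led in macrophages, with 51.6% of the light-chain UMIs in IL4 (50.7 to 52.6) and 47.6% in control (46.4 to 48.7). By level it had 170 and 145 CPM in macrophages, 113 and 93.0 in classical monocytes, and between 4.43 and 50.6 CPM in the other compared types of either library. The step between macrophages and monocytes was 1.5-fold in IL4 and 1.56-fold in control, too small for the 2-fold rule. Among the 8 compared types the gene thus marks both types together. Outside them, ungated barcodes had 152 and 118 CPM. Mast cells or basophils had 1590 and 148 CPM, on 15 and 3 UMIs from 3 barcodes in each library. In classical monocytes Slc7a8 and Slc7a11 were close, at 37.9% and 35.7% of the chains in IL4 and at 33.8% and 38.9% in control.

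Slc7a7, the light chain that exchanges cationic for neutral amino acids, followed Slc7a8 in being high in macrophages (33.3 CPM in IL4, 41.2 in control) and classical monocytes (34.5 and 34.9) and low in NK cells (3.30 and 0.885) and T cells (3.36 and 4.34). Unlike for Slc7a8, cDC1 came near monocytes in control (17.0 CPM in IL4, 29.9 in control). Slc7a5 (LAT1), which brings in leucine and other large neutral amino acids, was the leading chain of T cells (56.8% and 55.4%), NK cells (52.6% and 44.9%), cDC2 (44.0% and 38.1%) and cDC1 (40.2% and 41.7%). Slc7a6, a close relative of Slc7a7, made up 20.6% and 26.4% of the chains in T cells and 26.3% and 31.9% in NK cells, against 2.59% and 3.19% in macrophages. Mature DC were set apart from cDC1 and cDC2 by Slc7a11, with 57.9% and 59.9% of their light-chain UMIs.

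The cationic carrier Slc7a1, which takes up arginine and lysine without a heavy chain, was highest in NK cells (141 CPM in IL4, 140 in control) and T cells (111 and 127). It was lowest in neutrophils (41.1 and 48.1) and macrophages (48.6 and 49.1). Slc1a5 (ASCT2), an exchanger that carries glutamine, was likewise highest in T cells (66.3 and 77.6 CPM) and NK cells (58.6 and 77.9). The other Slc1a members were sparse: Slc1a4 had 209 UMIs and Slc1a2 151 over both libraries.

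The sodium-coupled carriers Slc38a1 and Slc38a2 were found in every type. Slc38a1 ran between 215 CPM in neutrophils and 515 CPM in NK cells in IL4, and between 168 CPM in mature DC and 440 CPM in NK cells in control. Slc38a2, which cells are known to induce when amino acids run short, was highest in NK cells (372 and 406) and then mature DC (294 and 292), and lowest in cDC1 (111 and 135). Slc38a9, the lysosomal protein that reports arginine to mTORC1, led in cDC2 (42.6 and 60.8) ahead of cDC1 (33.0 and 44.3). Slc38a6 led in macrophages (29.6 and 31.3), and Slc38a10 in NK cells (65.9 and 54.0).

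Slc43a2 (LAT4), a carrier of branched-chain amino acids and phenylalanine, was high in neutrophils (155 CPM in IL4, 120 in control), macrophages (96.2 and 104) and classical monocytes (81.4 and 93.0). It was nearly missing in mature DC, at 4.84 and 3.59 CPM, although cDC2 had 36.2 and 44.5 and cDC1 24.0 and 19.9. The top type stood 32.0-fold above mature DC in IL4. Slc43a1 had 12 UMIs in all.

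Slc43a3, which carries purine nucleobases, was low in most types but followed the cycling state. Barcodes with at least 3 of 10 cycling markers were set against the rest of their type in each library. In cycling macrophages (79 barcodes in IL4, 70 in control) Slc43a3 had 12.3 CPM in IL4 and 13.6 CPM in control, against 0.982 and 1.82 CPM in the other macrophages. The ratio was 12.5 in IL4 (6.47 to 23.4) and 7.46 in control (3.83 to 13.8). Cycling T cells showed the same direction, with 20.5 CPM against 7.81 CPM in the rest in IL4 (ratio 2.62, 1.20 to 6.06) and 37.3 against 4.02 CPM in control (ratio 9.29, 3.17 to 36.9). Cycling macrophages were lower than other macrophages in Slc38a1 (276 against 425 CPM in IL4, 218 against 301 CPM in control) and in Slc7a8 (95.4 against 173 CPM in IL4, 97.9 against 147 CPM in control). Cycling barcodes were deeper, with medians of 16506 and 13861 UMIs in macrophages, against 7417 and 8441 UMIs in the rest.

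**Figure D4:**
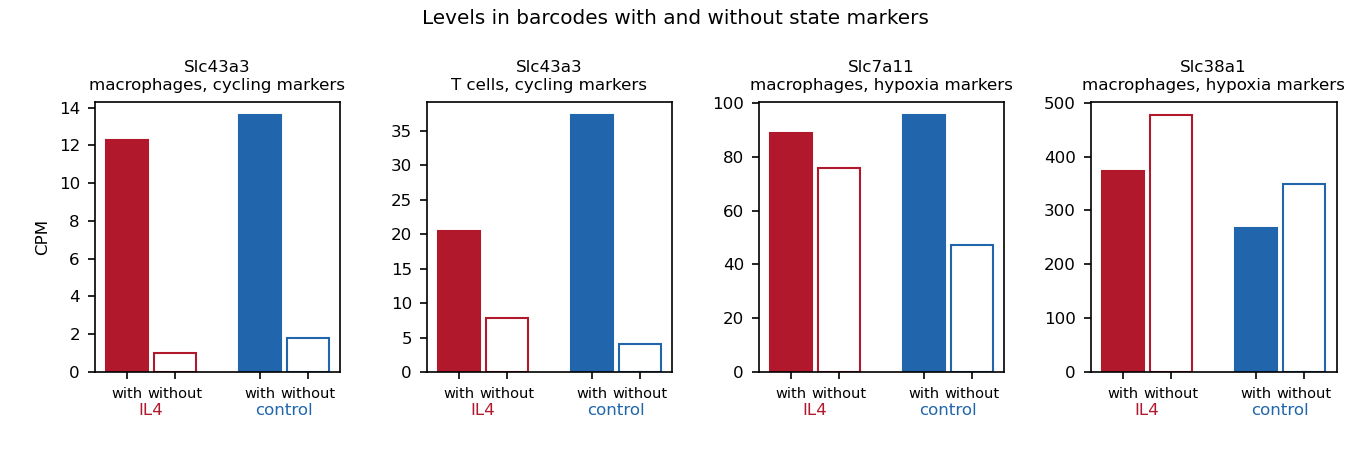
CPM of Slc43a3 in macrophages and T cells with and without cycling markers, and of Slc7a11 and Slc38a1 in macrophages with and without hypoxia markers, IL4 in red left of control in blue, filled bars for barcodes with the markers. Slc43a3 is higher in cycling barcodes of both types and both libraries, and the filled and open Slc7a11 bars differ more in control (95.5 and 47.1 CPM) than in IL4 (88.7 and 75.8 CPM).

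The IL4 and control libraries were then set against each other within each type. A member was called higher or lower in IL4 where the ratio of CPM + 1 was at least 1.5 or at most its inverse, the libraries together held at least 20 of its UMIs in the type, the higher library had at least 5 CPM, and the exact counting interval of the fold excluded 1. Over the 8 types, 140 pairs of a member and a type could be judged. Of these, 8 were higher in IL4 and 8 lower, and they fell on 8 of the 24 members judged anywhere. The share of all genes called in at least 1 type was not computed. The shares that follow are per type and cannot be set beside the 8 of 24. Over all genes, between 1.27% (cDC2) and 5.59% (neutrophils) of those judged in a type were higher. Between 1.72% (classical monocytes) and 6.48% (neutrophils) were lower. In the 3 types with at least 200 barcodes in both libraries the only calls were those of Slc2a3.

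In macrophages, 0 of 19 members were higher (2.42% of all genes judged) and 1 was lower (2.30% of all genes). The lower one was Slc2a3, with 4.42 CPM in IL4 and 7.29 CPM in control on 141 and 172 UMIs, a log2 ratio of -0.61 and a fold of 0.606 (0.481 to 0.761). The median log2 ratio of the 19 members was -0.03, against -0.07 over all genes. The Slc2a3 call was kept under 10 of 17 alternatives and its log2 ratio lay between -0.76 and -0.34 over them. Xist-only barcodes gave -0.64, and Y-only barcodes gave -0.76 without a call. With 1 more marker asked for in every gate the value was -0.34 and not called. S100a8, a marker of the neutrophil gate that like Slc2a3 is abundant in neutrophils, was at 3.57 CPM in IL4 macrophages and 11.5 CPM in control macrophages. Its part in the result was not tested.

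In classical monocytes, 0 of 19 members were higher (1.45% of all genes) and 1 was lower (1.72% of all genes), again Slc2a3, with 5.37 CPM in IL4 and 9.61 in control (log2 ratio -0.74, fold 0.559, 0.425 to 0.732). This call rests on 1 barcode: a single control monocyte held 34 of the 128 control UMIs, 26.6% of them. Leaving out the barcode with the most Slc2a3 UMIs in each library, an alternative chosen after seeing the data, gave 5.10 CPM in IL4 and 7.06 CPM in control, a log2 ratio of -0.40 and no call. Monocytes with Xist alone gave a log2 ratio of -0.10 and those with Y-linked genes alone one of -2.15, and it turned to 0.28 once barcodes with hypoxia markers (at least 4) or Arg1 (at least 5 UMIs) were left out.

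In cDC2, 0 of 18 members were higher (1.27% of all genes) and 0 lower (3.88% of all genes). Slc2a3 lay just short of the rule, with 11.7 CPM in IL4 and 17.9 in control (log2 ratio -0.57, fold 0.655, 0.515 to 0.831). It was called lower in cDC2 once the barcode with the most UMIs was left out of each library. In NK cells, 0 of 19 members were higher (2.67% of all genes) and 1 was lower (5.05% of all genes), and it too was Slc2a3, at 47.2 CPM in IL4 and 82.3 in control (log2 ratio -0.79, fold 0.574, 0.436 to 0.757). The NK call was kept under 15 of 16 alternatives, failing only the 2-fold threshold. One control NK barcode held 18 of 93 UMIs, and without the top barcode of each library the levels were 44.3 and 67.5 CPM and the log2 ratio -0.59. In T cells and neutrophils Slc2a3 was not called, with log2 ratios of 0.18 and -0.35.

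**Figure D5:**
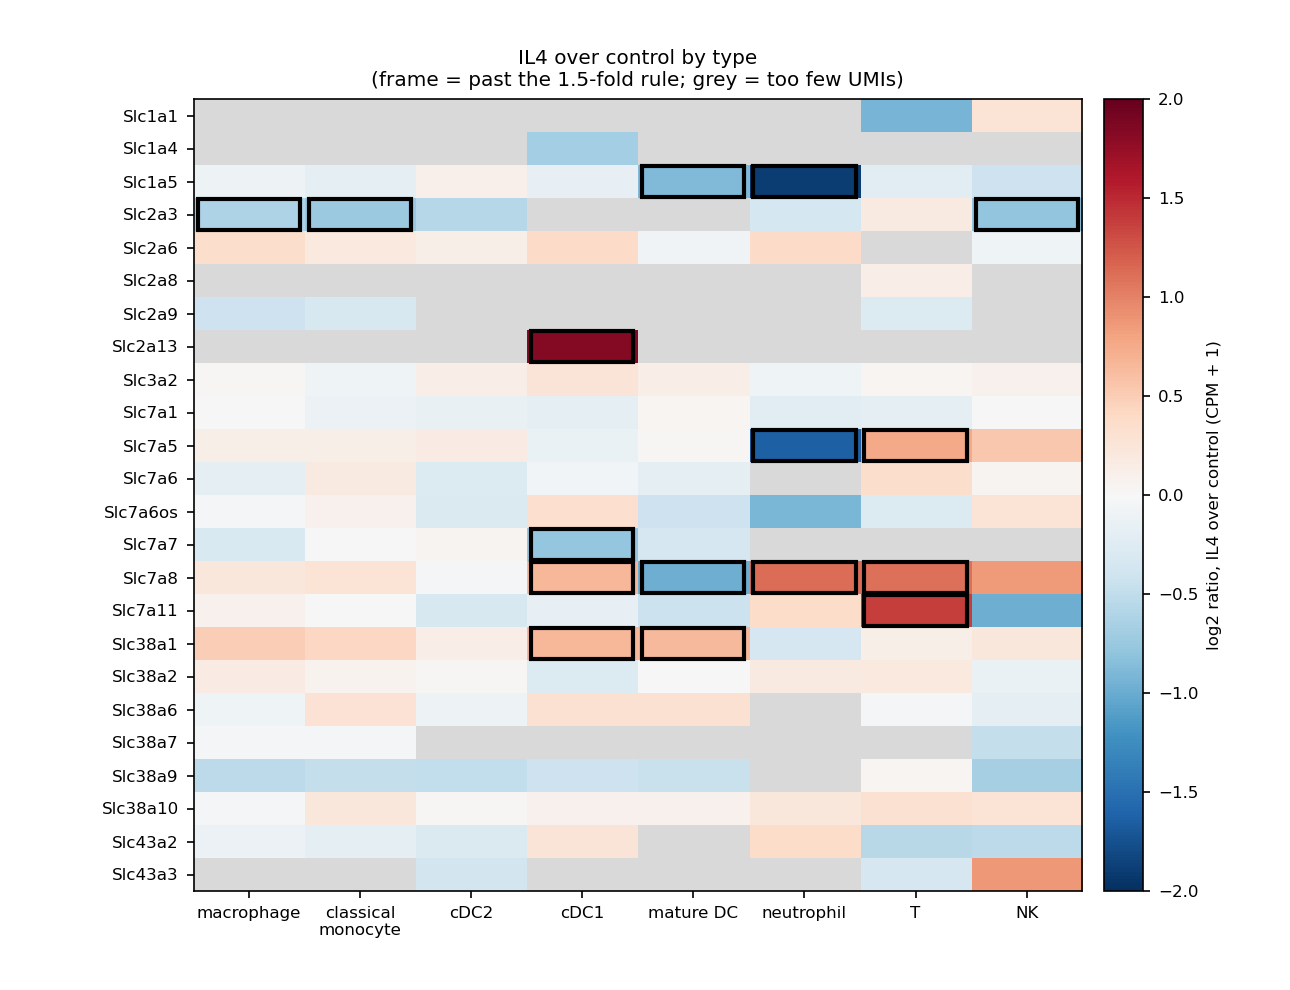
Log2 ratio of CPM + 1, IL4 over control, for the 24 members that could be judged in at least 1 type (rows) in 8 leukocyte types (columns). Red is higher in IL4, blue lower, grey marks pairs with too few UMIs, and frames mark the 16 pairs past the 1.5-fold rule: Slc2a3 is framed in macrophages, classical monocytes and NK cells, and no member is framed in cDC2.

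In T cells, 3 of 19 members were higher (4.46% of all genes) and 0 lower (3.54% of all genes). Slc7a5 had 70.5 CPM in IL4 and 41.6 in control, on 168 and 67 UMIs, a log2 ratio of 0.75 and a fold of 1.69 (1.27 to 2.28). It was found in 103 of 302 IL4 and 44 of 182 control T cells, no barcode held more than 8.96% of its UMIs, and the call failed only at the 2-fold threshold of 16 alternatives. Among T cells with CD8 markers the levels were 80.0 CPM in IL4 (66.7 to 95.2) and 43.7 in control (30.9 to 59.9), with intervals that do not overlap, and among the others 53.7 (38.6 to 72.9) and 39.4 (25.9 to 57.3). In NK cells Slc7a5 had 40.3 and 27.4 CPM, a fold of 1.47 whose interval (0.978 to 2.26) includes 1.

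The other T cell calls rest on few UMIs. Slc7a8 had 28 UMIs in IL4 and 8 in control (11.7 and 4.97 CPM, log2 ratio 1.10). Slc7a11 had 31 UMIs in 12 barcodes in IL4 and 7 UMIs in 6 barcodes in control (13 and 4.34 CPM, log2 ratio 1.39). With 1 marker fewer asked for in every gate, the Slc7a11 ratio turned to -0.61, and with 1 more it was 0.37. Among Xist-only T cells both genes had 12.7 CPM in IL4 and 2.12 CPM in control, a fold of 5.98 whose interval runs between 1.45 and 52.8, and among the Y-only T cells (45 and 49 barcodes) the folds were 0.577 for Slc7a8 and 1.15 for Slc7a11, with intervals that include 1.

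In cDC1, 3 of 18 members were higher (3.39% of all genes) and 1 was lower (5.94% of all genes). Slc38a1 had 351 CPM in IL4 and 222 in control on 1363 and 802 UMIs, a log2 ratio of 0.66 and a fold of 1.58 (1.45 to 1.73). Slc7a8 had 31.9 and 19.6 CPM (log2 ratio 0.67), a call lost under 6 of 16 alternatives: the log2 ratio was 0.02 without the 10% of barcodes with the most UMIs and -0.24 without barcodes of hypoxia markers or Arg1. Slc7a7 was lower, with 17.0 and 29.9 CPM (log2 ratio -0.78), but among Xist-only cDC1 it had 21 and 27.8 CPM, a fold of 0.756 (0.509 to 1.13) and no call. The Slc38a1 fold over Xist-only cDC1 was 1.60, that over the few Y-only cDC1 (19 barcodes in IL4, 45 in control) was 1.83, and the call was lost, with the direction kept, under 5 of 16 alternatives.

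The remaining cDC1 call was Slc2a13, a proton-coupled carrier of myo-inositol, with 7.47 CPM in IL4 (5.0 to 10.7) and 1.38 CPM in control (0.449 to 3.23). The 29 IL4 UMIs came from 15 of 210 barcodes and the 5 control UMIs from 5 of 166. The log2 ratio was 1.83 and the call was kept under 15 of 16 alternatives, with a lowest value of 0.97. Barcodes that no gate had claimed alone gave a further reading, in a split chosen after seeing the data. Of these undivided barcodes, the 230 in IL4 and 117 in control that reached the cDC1 marker minimum had 9.15 CPM in IL4 (6.70 to 12.2) and 0.657 CPM in control (0.0795 to 2.37). The undivided barcodes under that minimum had 0.299 CPM in IL4 (0.129 to 0.588) and 0.144 CPM in control (0.0297 to 0.421), on 8 and 3 UMIs. In IL4 the intervals on the 2 sides of the minimum lie apart, while in control they overlap.

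In mature DC, 1 of 15 members was higher (3.52% of all genes) and 2 were lower (6.03% of all genes). Slc38a1 was the higher one, with 264 CPM in IL4 and 168 in control (log2 ratio 0.65, fold 1.57, 1.39 to 1.78). Slc1a5 was lower, with 11.6 and 22.4 CPM (log2 ratio -0.89), and so was Slc7a8, with 5.49 and 11.7 CPM on 17 and 26 UMIs. Slc38a1 had a fold of 1.65 over Xist-only mature DC, and of 1.56 over the Y-only ones (42 and 51 barcodes). The Slc7a8 call was lost under 7 of 16 alternatives, Xist-only barcodes among them (log2 ratio -0.66). Slc1a5 had a fold of 0.495 over Xist-only mature DC and of 0.997 (0.381 to 2.47) over Y-only ones. Mature DC with at least 4 hypoxia markers made up 24.7% in IL4 and 41.1% in control. These shares were not adjusted for depth, and the median was 10101 UMIs in IL4 and 13041 in control. No member was called when barcodes with hypoxia markers or Arg1 were left out. The log2 ratios were then 0.51 for Slc38a1, -0.75 for Slc1a5 and -0.22 for Slc7a8, all in the same direction as before.

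In neutrophils, 1 of 13 members was higher (5.59% of all genes) and 2 were lower (6.48% of all genes). All of them rest on few UMIs in IL4: Slc7a8 had 16 UMIs in IL4 and 20 in control, Slc1a5 2 and 23, and Slc7a5 4 and 36. Slc7a5 had 12.7 CPM in IL4 and 41.2 in control (fold 0.307, 0.0793 to 0.856), and Slc1a5 6.33 and 26.3 (fold 0.240, 0.0274 to 0.972). The Slc7a8 call was lost without its top barcode, which held 6 of the 16 IL4 UMIs. Slc7a11 itself differed by less than the rule asks, with a fold of 1.30 (1.19 to 1.41). Neutrophils with at least 4 hypoxia markers made up 15.6% in IL4 and 40.2% in control, shares not adjusted for depth (medians of 2429 and 2888 UMIs). None of the 3 calls held with barcodes of hypoxia markers or Arg1 left out. The log2 ratios then kept their directions, at -1.14 for Slc7a5, -1.03 for Slc1a5 and 0.27 for Slc7a8.

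A pair of members, mostly below the 1.5-fold line, each kept its own direction in most types, Slc38a1 upward and Slc38a9 downward. Only Slc38a1 in cDC1 and mature DC passed the line. Slc38a1 was higher in IL4 than in control in every type but neutrophils, with 418 and 297 CPM in macrophages (fold 1.41, 1.37 to 1.45), 354 and 265 CPM in classical monocytes (fold 1.34, 1.28 to 1.39) and a smaller fold of 1.10 in cDC2 (1.06 to 1.15). In T cells the fold of 1.09 has an interval that includes 1 (0.977 to 1.21). In macrophages the Xist-only fold was 1.29 and the Y-only fold 1.67, and barcodes with and without hypoxia markers or Arg1 gave 1.39 and 1.37, so the difference stood on each side of both divisions. In cDC2 the Xist-only fold was 0.960 (0.910 to 1.01) and the Y-only fold 1.44 (1.31 to 1.57).

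Slc38a9 was lower in IL4 in 6 of the 7 types in which it was judged. It had 17.8 CPM in IL4 and 25.9 in control macrophages (fold 0.687, 0.612 to 0.771), 19.8 and 27.9 CPM in classical monocytes (0.711, 0.613 to 0.823), 42.6 and 60.8 CPM in cDC2 (0.701, 0.618 to 0.795) and 33.0 and 44.3 CPM in cDC1 (0.745, 0.586 to 0.945). These 4 folds have intervals under 1. Within Xist-only and Y-only macrophages the folds were 0.669 and 0.564, and within cDC2 0.698 and 0.584. T cells stood apart, with 17.2 and 16.8 CPM.

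Slc7a11 in macrophages and monocytes was level between the libraries as a whole, with folds of 1.07 (1.01 to 1.13) and 0.996 (0.930 to 1.07), but not within their subsets. In macrophages without hypoxia markers or Arg1, a split examined after its effect had been seen, it had 74.7 CPM in IL4 and 43.8 in control (fold 1.71, 1.51 to 1.93). In those with them it had 89.0 and 95.9 CPM (fold 0.928, 0.865 to 0.996). The same split of classical monocytes gave folds of 1.25 (1.11 to 1.40) without and 0.882 (0.808 to 0.962) with them. In control macrophages the level with at least 4 hypoxia markers was 2.03-fold that without (1.82 to 2.27), and in IL4 macrophages 1.17-fold (1.08 to 1.27); the difference between these ratios was not tested. In Xist-only monocytes the Slc7a11 fold, IL4 over control, was 0.805 (0.737 to 0.881), and in Y-only monocytes 2.25 (1.92 to 2.63), so the even pooled value joins opposite directions. Macrophages did not show this, with an Xist-only fold of 1.09 and a Y-only fold of 1.44 (1.27 to 1.64). The barcodes with hypoxia markers were deeper than the rest, with medians of 9004 and 10157 UMIs, against 5879 and 6460 UMIs, and they made up 46.9% of macrophages in IL4 and 53.6% in control.

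Genes around the transporters were read from lists of related pathways. In macrophages, 4 of 11 hypoxia markers judged were lower in IL4 and 0 higher (Adm, Egln3, Ero1l and Bnip3; 2.30% of all genes were lower), with a median log2 ratio of -0.48, against -0.07 over all genes. Ero1l, an oxidase of the endoplasmic reticulum, had 88.6 and 197 CPM, and Egln3, an oxygen-sensing hydroxylase, 31.4 and 75.4 CPM. None of 21 genes of glycolysis, lactate export and its brakes passed the rule, although their median was -0.33. Arg1 and Nos2, the enzymes that compete for arginine, were lower (288 and 502 CPM for Arg1, 3.41 and 10.0 CPM for Nos2), the other 4 of 6 genes of arginine use being within the rule, while Slc7a1, which imports arginine, was even at 48.6 and 49.1 CPM.

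None of 13 macrophage genes of the ATF4 amino acid response, 19 of mTORC1 and lysosomal amino acid sensing, 14 of glutathione and NRF2, or 10 of glutamine and branched-chain amino acid use passed the rule. Their medians lay between -0.13 and -0.08. Among 11 amino acid carriers of other families, only Slc36a1, a proton-coupled carrier of lysosomes, was lower (11.9 and 18.8 CPM). Classical monocytes, where 1.72% of all genes were lower, had 3 of 10 hypoxia markers lower (Egln3, Ero1l and Pdk1), and Arg1 (121 and 259 CPM) and Nos2 lower as well. In cDC2, where 1.27% of all genes were higher and 3.88% lower, 1 of 13 ATF4 response genes was higher and 1 lower. The higher one was Sesn2, which senses leucine (53.6 and 35.1 CPM), and the lower one Phgdh, the first enzyme of serine synthesis. Of 13 glutathione and NRF2 genes only Hmox1, which breaks down heme, was called, as lower (31.8 and 81.2 CPM). Arg1 (7.89 and 26.3 CPM) and Egln3 (17.8 and 42.6 CPM) were lower in cDC2 too. In mature DC, where 3.52% of all genes were higher and 6.03% lower, the hypoxia markers Vegfa, Bnip3, Ero1l and P4ha1 were lower. Of the other lists, Psph, Mthfd2, Castor1 and Pfkp were higher in mature DC, and Gclc, Bcat2, Tfeb, Lamtor4 and Slc25a44 lower.

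In neutrophils, where 5.59% of all genes were higher and 6.48% lower, genes of glycolysis were among those called. Of 20 genes of glycolysis, lactate export and its brakes, 11 were lower in IL4 and 1 was higher, with a median of -0.72, and 6 of 10 hypoxia markers were lower, with a median of -1.22, against -0.04 over all genes. Pgk1, a glycolytic kinase, had 158 CPM in IL4 and 345 in control, and Tpi1, which joins the triose branches of glycolysis, 152 and 320 CPM. Arrdc4, a brake on glucose uptake, was the higher one at 168 and 81.3 CPM. From the remaining lists, Slc15a3 and Tfeb were higher in neutrophils, and Rptor, Rragc, Hmox1 and Got2 lower. The carriers Slc2a3 (fold 0.786, 0.596 to 1.02) and Slc2a6 (fold 1.30, 0.775 to 2.13) had intervals that include 1. Whether the carriers differed from the glycolysis genes was not tested. In T cells none of 20 glycolysis genes and none of 13 ATF4 genes passed the rule, and their medians were -0.03 and 0.05. Of the other lists, the hypoxia markers Pdk1 and P4ha1, as well as Gclm and Ass1, were lower in T cells, and Arg2 was higher. Over all genes, 4.46% were higher in T cells and 3.54% lower.

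NK cells and cDC1 also held hypoxia markers that were higher in IL4. In NK cells, where 2.67% of all genes were higher and 5.05% lower, 2 of 10 hypoxia markers were higher, Vegfa, a growth factor of blood vessels (196 and 127 CPM), and Mxi1 (45 and 25.7 CPM), and 1 was lower, Egln3 (9.15 and 22.1 CPM). Of 20 NK genes of glycolysis, lactate export and its brakes, 1 was higher, Pgk1 (205 and 122 CPM), and 1 was lower, Pfkfb3, which makes an activator of glycolysis (49.8 and 79.7 CPM). From the remaining lists, Slc6a6 and Phgdh were higher in NK cells, and Psph, Sesn1, Tfeb, Arg2 and Asl lower. In cDC1, where 3.39% of all genes were higher and 5.94% lower, 1 of 11 hypoxia markers was higher, Mxi1 (77.8 and 48.4 CPM), and 1 was lower, P4ha1, a collagen prolyl hydroxylase (90.9 and 161 CPM). Gclc, of the glutathione list, was higher in cDC1 (57.4 and 27.7 CPM). The ATF4 response genes Ddit4, Shmt2 and Chac1 were lower there, as were Castor2, Glul and Slc25a22 of other lists.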

How the data were processed

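Each library is a deposited matrix of UMI counts, with genes as rows and barcodes as columns. Per the submitters' processing notes, Cell Ranger 7.2.0 and mm10 were used; the release of the gene annotation was not given in the sources used here. Both deposited count matrices hold whole, unscaled UMI counts and no barcode under 500 UMIs. Barcodes under 250 genes or over 10% mitochondrial UMIs were dropped. A barcode took the type with the most detected markers if it reached the minimum (4 markers, or 3 for T, B, plasma, mast and non-classical lists) with a lead of 2; otherwise it stayed undivided or ungated. UMIs were summed per type and library and scaled to CPM over all genes. Folds carry exact conditional binomial intervals, levels exact Poisson and shares exact Clopper-Pearson intervals, all at 95%. A count of 0 is read against a floor of 3 UMIs. The fold rule was tested on simulated counts. Members, lists and markers were chosen with earlier results of these data known. The text names members called in types with at least 200 barcodes, those raised in 1 type, the 3 best captured of each family and those at 0; further members were named after their values were seen. Promoter windows are from RefSeq. Analyses used Python 3.11.15, numpy 2.4.6, scipy 1.17.1, pandas 2.3.3 and matplotlib 3.10.9; 18 other settings and 1 chosen after seeing the data were run.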

Additional observations from a re-analysis of the deposited data

Results flagged for a closer look

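Slc7a5 and Slc7a8 were past the rule in opposite directions in different types, and the differences between types were not tested. Slc7a5 had a log2 ratio, IL4 over control, of -1.63 in neutrophils and 0.75 in T cells, the neutrophil value resting on 4 UMIs in IL4 and 36 in control. Slc7a8 had log2 ratios of 0.67 in cDC1, 1.11 in neutrophils and 1.10 in T cells, and of -0.97 in mature DC.

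In barcodes outside the 8 compared types, several members were higher in IL4 than in control by the same rule. Only higher members were listed for these barcodes, and shares over all genes were not computed there. In plasmacytoid DC (70 barcodes in IL4, 19 in control) the Slc7a5 fold was 2.45, from 97 UMIs in IL4 and 10 in control. In B cells (25 and 52 barcodes) the folds were 2.69 for Slc2a3, 2.07 for Slc3a2 and 2.19 for Slc38a2, on 12 to 40 UMIs per library. In non-classical monocytes (38 and 31 barcodes) the Slc7a11 fold was 2.75, on 19 and 7 UMIs. Among ungated barcodes the folds were 1.62 for Slc2a6 and 1.53 for Slc7a5. Other members were lower there, such as Slc2a3 (9.17 CPM in IL4, 18.8 in control) and Slc7a11 (150 and 268 CPM). The Slc2a3 fold of 6.89 among mast cells or basophils comes from 3 barcodes in each library, and 1 barcode holds 14 of the 16 IL4 UMIs.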

How the results depend on the processing

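The 16 pairs of member and type past the rule were recomputed under the alternatives, giving 252 values: 238 lay inside the counting interval of the reported value, 11 moved outside it with the direction kept, and 3 reversed. The 2-fold threshold and the setting without minimum UMIs or CPM change only the call, so their values equal the reported ones. They count among the 238 by construction, and dropping the minimums cannot lose a call. With hypoxia and Arg1 barcodes left out, Slc2a3 in classical monocytes had a log2 ratio of 0.28 and Slc7a8 in cDC1 one of -0.24. Slc7a11 in T cells had -0.61 with 1 marker fewer in every gate. The number of pairs of member and type higher in IL4, 8 as reported, was 3 with hypoxia and Arg1 barcodes left out, 5 in Y-only barcodes, where only 3 types keep 50 barcodes, and 4 at a 2-fold threshold. The number of pairs lower, also 8, was 11 with hypoxia and Arg1 barcodes left out and 2 at a 2-fold threshold. Of the 8 as reported, only Slc7a7 in cDC1 and Slc2a3 in NK cells were still called without hypoxia and Arg1 barcodes. Most of the 11 were therefore other pairs. The number of members raised in 1 type, 3 as reported, was 0 under the stricter barcode filter and 0 in Xist-only barcodes, since neutrophils then fall under 50 barcodes, 1 in Y-only barcodes (Slc38a9, over 3 types) and 1 at a 3-fold threshold (Slc7a11). Other causes were not tested. No paired analysis was possible because each group is 1 library. Neutrophils, with 316205 and 872995 UMIs in all, limit every neutrophil comparison, and members under about 5 CPM could not be judged in most types.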

Other observations

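Plasmacytoid DC, too few in control to compare, exceeded the 8 compared types in several members. Slc1a2, a glutamate carrier best known from astrocytes, had 35.7 CPM in IL4 (23.5 to 52.0) and 10.5 CPM in control (1.27 to 37.8), while in the 8 compared types it stayed at or below 5.83 CPM. The 27 IL4 UMIs came from 9 of 70 barcodes. Slc38a1 reached 683 and 712 CPM, Slc3a2 478 and 450 CPM, and Slc7a6os, which is no transporter, 116 and 105 CPM, in each case above all 8 compared types in both libraries.

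Ungated barcodes with at least 2 neutrophil markers, 59 in IL4 and 112 in control, had 403 and 910 CPM of Slc7a11, against 140 and 198 CPM in the other ungated barcodes.

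In cycling T cells, Slc38a1 had 269 CPM in IL4 and 253 in control, against 474 and 425 CPM in the remaining T cells, and Slc3a2 168 and 190 CPM, against 309 and 278 CPM.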
